A study of Mus musculus with 2 samples.

Results

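The 59 probes described here read transcripts of the immunoglobulin heavy chain, out of 41174 probes on an Agilent whole mouse genome array. They were chosen by annotation: a description that names an immunoglobulin heavy chain, or a gene name that begins with Igh, with light chain, receptor and domain records left out. The study set the small intestine of C57BL/6 mice on a food antigen-free diet (FAF), in which amino acids stand in for protein, beside that of C57BL/6 mice on a conventional chow (Conv, LASQCdietRod16). FAF mice were held on their diet for at most 5 generations, and mice of 6 to 8 weeks were used. The labels mention both SPF (specific pathogen-free) and GF (germ-free) animals without saying which gave the RNA, and the sources used here do not say if a sample was 1 mouse or pooled. Total RNA was isolated with Trizol, labelled with the Quick Amp kit and hybridised to 2 two-colour arrays, with FAF in Cy5 on array 1 and in Cy3 on array 2. Both arrays carried the same pair of RNA samples, so each diet has 1 sample, the pair of arrays is a technical dye swap, and no test between the diets was possible.

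A heavy chain gene is put together in each B cell from a variable (V), a diversity (D) and a joining (J) segment, and its transcript joins that variable region to a constant region. The constant region sets the antibody class: mu and delta in naive B cells, and gamma, epsilon or alpha after class switching. In the gut wall, plasma cells secrete mainly IgA, whose heavy chain is alpha. A constant region probe therefore reads all clones of a class, whereas a variable region probe reads the clones that use its segment or a close relative, and neighbouring J558 segments are much alike. Small intestine is bulk tissue here, so fewer plasma or B cells and less antibody RNA per cell cannot be told apart.

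The probes carry their own identity in their 60 bases. Coordinates are taken from the array files and refer to mouse build mm9, where all mapped members lie on the minus strand of chromosome 12. The first set is shown because these variable region probes had the highest and lowest ratios; M32395 lies at chr12:115134750-115134809, JX120341 at chr12:115630019-115630078, BC092269 at chr12:115170278-115170336 and AF193442 at chr12:115414722-115414781. Capitals mark GAGTGGATTGG, a stretch of the second framework region, which only BC092269 of these 4 holds.
M32395: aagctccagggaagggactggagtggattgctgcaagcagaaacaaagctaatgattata
JX120341: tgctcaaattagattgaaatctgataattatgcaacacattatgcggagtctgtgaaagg
BC092269: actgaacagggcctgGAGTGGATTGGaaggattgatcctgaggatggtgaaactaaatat
AF193442: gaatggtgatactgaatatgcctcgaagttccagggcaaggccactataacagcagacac

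The second set is shown because many of the bright variable side probes hold the stretch marked in it. Capitals mark TCTATTNCTGT, the stretch that ends the third framework region just before the V-D-J junction, and in AY895789 they mark TGGGGNCAAGG, which lies in the joining segment; this dimmer probe is shown as the member just outside the size limit. AY182513 and U39781 map in pieces, over chr12:114708909-115298102 and chr12:116313116-116446347, and AY895789 lies at chr12:114666741-114666800.
AY182513: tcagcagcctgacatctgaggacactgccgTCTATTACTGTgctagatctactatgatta
U39781: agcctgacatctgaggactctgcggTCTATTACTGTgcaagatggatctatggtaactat
AY895789: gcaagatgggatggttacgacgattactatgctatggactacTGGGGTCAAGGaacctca

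The third set is shown because closely alike probes gave different ratios, and capitals mark the bases that differ within their overlap. AF296435, at chr12:117072253-117072312, and AF303856, at chr12:117218996-117219055, share 46 of 51 overlapping bases. AF296432, at chr12:117150644-117150703, and AK007163, at chr12:117190820-117190879, share 39 of 42.
AF296435: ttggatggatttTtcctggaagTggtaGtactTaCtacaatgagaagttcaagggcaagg
AF303856: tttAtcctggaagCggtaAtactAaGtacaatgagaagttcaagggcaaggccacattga
AF296432: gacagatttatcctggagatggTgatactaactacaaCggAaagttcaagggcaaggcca
AK007163: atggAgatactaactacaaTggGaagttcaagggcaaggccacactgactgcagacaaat

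Measured probes were those that stood well above background on both arrays in 1 diet or more, and they numbered 57 of the 59 members and 25440 of all 41174 probes. Each of those 57 was well above background in both diets on both arrays. The members not measured were ENSMUST00000137336, the epsilon constant region of IgE, and AY182587, a variable region record. Ratios are log2 of FAF over Conv, and the value after ± is how far each array lay from the mean of both, which measures dye and hybridisation error and says nothing of the spread between mice. A probe passed the size rule when its mean was at least 2-fold and each array gave at least 1.5-fold in the same direction. Intensities are given for array 1 and then array 2, normalised within and between arrays, and include an added offset of 50.

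Of the 57 measured members, 3 were higher in FAF and 10 were lower by the size rule. Over all measured probes 319 were higher, or 1.25%, and 176 were lower, or 0.692%, so 1.95% passed either way. With the log ratio of the scanner software in place of these ratios, 18 members were lower, 2 of them on the constant side described below. The members were proposed with this comparison known, and nothing is read from these shares. The median ratio of the members was -0.41, with 17 above 0 and 40 below, beside a median of 0.01 over all measured probes. Their SD was 0.92, beside 0.34 over all measured probes. The members ran from -2.21 to 2.94, and their quartiles were -0.83 and 0.07. Individual members thus lay on both sides of 0, with most of them below it.

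The members were divided into a constant side, of 16 probes that map at or below the mu gene on chromosome 12, and a variable side of the other 43, of which 30 map above mu in 1 piece, 4 map in pieces and 9 have no position in the files. All 13 members past the rule were on the variable side, where 42 probes were measured and the median was -0.72 (SD 1.05). The constant side had 15 measured probes and a median of -0.16 (SD 0.31), with 4 above 0, 11 below and none past the rule. Probes of the constant side did pass with other ratios: 2 gamma probes were lower with the software ratio and 1 with an offset of 10, and 1 of the 3 bright probes described next was lower on array 2 alone. The median of the constant side was 0.04 on array 1 alone, -0.10 on array 2 alone and -0.04 without those 3 bright probes, so its sign differed between the arrays. On the variable side both arrays gave the same sign for 42 of 42 probes, and no probe lay more than 0.17 from its mean. Over all measured probes the sign was the same for 19582 of 25440. Within the intensity range of the variable side it was the same for 12570 of 15580 probes outside the heavy chain. On the constant side the sign was the same for 8 of 15. As a description over probes that share the same RNA, the ratios of array 1 and array 2 had a Pearson r of 0.997 and a Spearman rho of 0.983 on the variable side. Over all measured probes these were 0.883 and 0.78.

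The constant genes lie in the RefSeq order Igha, Ighe, Ighg2c, Ighg2b, Ighg1, Ighg3, Ighd and Ighm from the low coordinate of chromosome 12 (assembly GRCm38.p6, used for order only). Alpha, the class of IgA, comes first, and 3 probes of the record ENSMUST00000178282 lie below epsilon, on the side of alpha, at chr12:114496985-114497302. Igha is the only constant gene of that order below Ighe, so by position these probes belong to alpha, the class of IgA. The array file names them Igh-VJ558, after the J558 family of variable segments, so name and position disagree. They were the brightest members. Probe A_51_P180159 had 155974 and 116790 in FAF, against 148664 and 214889 in Conv, a ratio of -0.41 ± 0.47. A_51_P509679 had 143647 and 105216 in FAF, against 130587 and 204280 in Conv, a ratio of -0.41 ± 0.55. A_51_P187645 had 141731 and 94689 in FAF, against 126374 and 201933 in Conv, a ratio of -0.46 ± 0.63. On array 1 FAF was slightly the brighter diet at each of the 3 probes, and on array 2 Conv was, so the direction was not settled.

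At these 3 probes array 1 exceeded the mean of both arrays by 0.47 to 0.63. The 6 other measured probes of the array at least as bright as the dimmest of them gave 0.31 to 0.61. Among the 200 brightest probes, which include all 9, the median was 0.12 and 20 exceeded 0.3, and over all measured probes the median was 0.01. No saturated pixel was recorded for these probes. With 2 arrays, dye and array cannot be told apart, and the part of brightness was not tested.

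The only probe annotated for alpha was AF029748, called an I alpha polypeptide, between the 3 bright probes and epsilon. It had 91 and 88 in FAF, against 98 and 84 in Conv, a ratio of -0.02 ± 0.08. The diets overlapped at this dim probe. It lies at chr12:114503159-114503217, apart from the 3 bright probes, and its ratio is not read here as that of IgA.

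Gamma constant regions belong to IgG. The lowest of them was ENSMUST00000103418, annotated as gamma polypeptide and lying at chr12:114544665-114544724, between the probes of gamma 2C and gamma 1, where the order has Ighg2b. It had 660 and 698 in FAF, against 1228 and 1370 in Conv, a ratio of -0.94 ± 0.04, or 1.91-fold lower in FAF, which is short of the 2-fold limit. The diets did not overlap, and by these ratios it was the constant side probe farthest from 0. For gamma 2C, the IgG class that C57BL/6 mice carry in place of gamma 2A, ENSMUST00000103416 had 75 and 85 in FAF, against 108 and 131 in Conv, at A_51_P311235, with a ratio of -0.57 ± 0.05. Its probe A_51_P351953 had 122 and 139 in FAF, against 145 and 184 in Conv, with a ratio of -0.33 ± 0.08. Both gamma 2C probes were dim, so the offset takes up much of their signal. With an offset of 10 A_51_P311235 stood at -1.04, and with the software ratio at -1.75, past the rule in both cases and farther from 0 than ENSMUST00000103418, which stood at -0.99 and -1.03 and passed with the software ratio. A_51_P351953 stood at -0.47 with an offset of 10 and at -0.70 with the software ratio.

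Gamma 1 probes lay close to 0. ENSMUST00000103420 had ratios of 0.07 ± 0.07 and -0.05 ± 0.01 at its 2 probes, and X87228, which lies in the same gene's place, had 0.02 ± 0.08. Ighg3, read by AK131185, was the highest constant region, with 217 and 220 in FAF, against 185 and 185 in Conv, and a ratio of 0.24 ± 0.01. The gamma probes thus lay on both sides of 0, and none passed the rule by these ratios.

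Delta and mu are the classes of B cells that have not switched. The delta probe AK134885, which the array file names Ighv14-2 but describes as a delta C region, had 81 and 99 in FAF, against 100 and 106 in Conv, with a ratio of -0.20 ± 0.11. This probe was dim as well, and it stood at -0.37 with an offset of 10 and at -0.76 with the software ratio. Ighm, read by AK088666, had 1402 and 1322 in FAF, against 1334 and 1340 in Conv, with a ratio of 0.03 ± 0.05. ENSMUST00000103426, also mu, had 1815 and 1732 in FAF, against 1837 and 2139 in Conv, at A_52_P571419, with a ratio of -0.16 ± 0.14. Another probe of that transcript, A_51_P485421, sits in 10 spots on each array. Its spots averaged 0.04 on array 1 (SD 0.05 over spots) and -0.10 on array 2 (SD 0.06), for a mean of -0.03 ± 0.07. At AK088666 and A_51_P485421 the arrays gave opposite signs, and at A_52_P571419 both were below 0.

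On the variable side, 3 probes were higher in FAF. M32395, a rearranged VJ1 region, had 1997 and 1999 in FAF, against 265 and 257 in Conv, a ratio of 2.94 ± 0.02 or 7.65-fold. JX120341, a heavy chain clone of strain C57BL/6, had 724 and 718 in FAF, against 126 and 99 in Conv, a ratio of 2.69 ± 0.17 or 6.46-fold, and 4.04 with the software ratio. AF296435, of the J558 family, had 857 and 887 in FAF, against 385 and 344 in Conv, a ratio of 1.26 ± 0.11 or 2.4-fold. FAF exceeded Conv on both arrays at all 3. The size rule requires this of a probe called higher, and the values of a diet are 2 readings of 1 RNA sample.

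The lowest of the 10 lower probes was BC092269, named Ighg in the array file. Its position among variable segments and its framework stretch, printed above, place the probe in a variable region, so it does not read a gamma constant region. It had 255 and 299 in FAF, against 1313 and 1234 in Conv, a ratio of -2.21 ± 0.16 or 4.61-fold lower in FAF. AF193442, from an IgM antibody, had 110 and 139 in FAF, against 514 and 543 in Conv, a ratio of -2.09 ± 0.13 or 4.27-fold lower, and -3.01 with the software ratio. JX120343, another clone of strain C57BL/6, had 286 and 308 in FAF, against 1026 and 980 in Conv, a ratio of -1.76 ± 0.09 or 3.38-fold lower. These 3 lay farther below 0 than AF296435 lay above it. M32395 and JX120341 lay farther above 0 than any of the 10 lower probes lay below it.

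M54924, a V region record, had 218 and 231 in FAF, against 727 and 626 in Conv, a ratio of -1.59 ± 0.15. AF296420, of the J558 family, had 633 and 695 in FAF, against 1739 and 1884 in Conv, a ratio of -1.45 ± 0.01. JX120184 had 199 and 237 in FAF, against 532 and 569 in Conv, a ratio of -1.34 ± 0.08. Conv exceeded FAF on both arrays at each of these 3, which the size rule requires. AB734727 had 138 and 156 in FAF, against 344 and 374 in Conv, a ratio of -1.29 ± 0.03, and -1.90 with the software ratio. AY172399, which holds the stretch at the end of the third framework, had 206 and 236 in FAF, against 457 and 495 in Conv, a ratio of -1.11 ± 0.04. JX120299 had 649 and 750 in FAF, against 1474 and 1524 in Conv, a ratio of -1.10 ± 0.08. Conv exceeded FAF on both arrays at these probes too, again a requirement of the rule.

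AF296427, of the J558 family, was the member just inside the size limit, with 733 and 756 in FAF, against 1536 and 1465 in Conv, and a ratio of -1.01 ± 0.06. Just outside it were AY895789, with 651 and 633 in FAF, against 1405 and 1150 in Conv, and a ratio of -0.99 ± 0.12, and X12388 at -0.97 ± 0.05. On the higher side the member just outside was Ighv6-6, read by M59922, with 315 and 304 in FAF, against 173 and 156 in Conv, and a ratio of 0.91 ± 0.05. These values grade into each other, and the rule marks no gap between called and uncalled probes.

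Bright variable side probes lay in a narrower range than the rest. L22886, a rearranged V region, had 8982 and 10154 in FAF, against 13806 and 13747 in Conv, a ratio of -0.53 ± 0.09. U39781, an IgM of the J558 family, had 8482 and 8378 in FAF, against 15172 and 12578 in Conv, a ratio of -0.71 ± 0.13. NP614311, a VDJ region, had 7513 and 8209 in FAF, against 13434 and 12981 in Conv, a ratio of -0.75 ± 0.09. Both arrays had Conv above FAF at these 3, by less than the 2-fold limit. AY182513 had 4821 and 5177 in FAF, against 9000 and 8680 in Conv, a ratio of -0.82 ± 0.08. JX120333 stood at -0.59 ± 0.07, JX120217 at -0.39 ± 0.09, AB017433, from an IgG against IL-18, at -0.35 ± 0.05, and AY172876 at -0.77 ± 0.10. JX120338 was the 1 of these 9 above 0, with 4385 and 4595 in FAF, against 4088 and 3424 in Conv, and a ratio of 0.26 ± 0.16.

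Split by mean intensity into 3 groups of 14, the variable side had medians of -0.74 among the dim probes (174 to 459), -0.68 among the middle probes (546 to 2143) and -0.65 among the bright probes (2266 to 11470). The medians were close, whereas the SD was 1.24 among the dim, 1.34 among the middle and 0.40 among the bright probes. None of the bright probes passed the rule, against 6 of the dim and 7 of the middle probes. The 13 probes past the rule therefore all came from probes of dim or middle brightness. Without them the variable side had a median of -0.53 (SD 0.55), with 10 above 0 and 19 below. Measured probes outside the heavy chain within the same intensity range, 15580 in number, had a median of 0.01 and an SD of 0.39.

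The remaining members with a gene symbol were moderate. Ighv1-19, read by AF296421, had 229 and 261 in FAF, against 461 and 473 in Conv, and a ratio of -0.93 ± 0.08. Ighv1-77, read by AF045501, had 4063 and 4279 in FAF, against 3908 and 3492 in Conv, and a ratio of 0.17 ± 0.12. Among J558 records named Igh-VJ558, AF296432 stood at -0.72 ± 0.06 and the 2 probes of AK007163 at 0.25 ± 0.11 and 0.11 ± 0.10. Ratios of J558 records thus lay on both sides of 0.

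Ratios followed no clear order along the locus. The 30 variable side probes that map in 1 piece had, over distance from mu, a Pearson r of -0.07 and a Spearman rho of 0.04, as a description of probes that share RNA and resemble each other. The 15 nearer to mu had a median of -0.93 (SD 1.53) with 2 higher and 6 lower, and the 15 farther away a median of -0.59 (SD 0.79) with 1 higher and 4 lower. Among the nearer probes AY172399, 1 of the 6 lower, and AY895789 map to overlapping places 7.1 kb from mu. AY172399 holds the third framework stretch and AY895789 the joining stretch, so these positions may not be those of their variable segments. The highest and the lowest member, M32395 and BC092269, were close neighbours in the nearer part. GC content of the probe had a Pearson r of -0.24 and a Spearman rho of -0.13 with the ratio over the 42 measured probes, again as a description. The 9 probes without a position in the array files had a median of -0.75 (SD 0.46), and 8 of them were below 0; the exception was AY173987 at 0.56 ± 0.03.

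Sequence motifs, chosen after the values were seen and searched on both strands of every probe, divided the variable side by exact letters; probes that lie at the same place with other letters count as without the stretch. TCTATTNCTGT occurred in 13 members and in 40 of all 41174 probes, or 0.0971%. Of the 12 measured, 11 were below 0, with a median of -0.73 (SD 0.43) and a range of -1.11 to 0.56. The 30 variable side probes without it had a median of -0.72 (SD 1.22) and a range of -2.21 to 2.94. The medians were close, and the probes with the stretch had the narrower spread. They were also brighter, with a median intensity of 6631 against 578 without the stretch. Bright variable side probes had the smaller SD, and the part of brightness in this spread was not tested. GAGTGGATTGG occurred in 5 members and in 10 of all probes, or 0.0243%, with a median of -1.01 and values from -2.21 to 0.17. Its letters were copied from BC092269, the lowest member, so the lowest value of this group was there by construction. TCTATTNCTGT and TGGGGNCAAGG were likewise copied from AY182513 and AY895789. TGGGGNCAAGG occurred in AY895789 alone among the members and in 4 of all probes, or 0.00971%. No member held more than 1 of these stretches, 24 variable side members held none, and no constant side or light chain probe held any.

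Alike probes did not always give alike ratios. Over overlaps of at least 40 bases with at least 85% identity, 22 pairs of measured members were found, and the median size of the difference in ratio within a pair was 0.30. The largest was 1.98, between AF296435 at 1.26 and AF303856 at -0.72, whose sequences are printed above and differ at 5 bases of the overlap. AF303856 had 132 and 140 in FAF, against 229 and 219 in Conv. AF296432 and AK007163, which differ at 3 bases, stood at -0.72 and 0.25. In contrast, U39781 and JX120333, alike at 41 of 42 bases, differed by 0.12. Cross-hybridisation between such probes can mix the segments they read, and its share was not tested.

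Light chains pair with heavy chains in every antibody and make a natural group to set beside them. Of 56 light chain probes, chosen by the mirror rule, 55 were measured, with a median of -0.14 and an SD of 0.98. By the size rule 3 were higher and 8 were lower. Among light chain probes above background in both diets, 1 was higher and 8 were lower. The software ratio gave 3 higher and 14 lower. The highest was X05391, an IgM light chain variable region, with 1941 and 1633 in FAF, against 147 and 110 in Conv, a ratio of 3.81 ± 0.08. The lowest was ENSMUST00000103331, a kappa variable segment, at -2.29 ± 0.12. Lambda constant 2, read by ENSMUST00000103749, stood at -1.61 ± 0.07, and the heavy chain constant regions between -0.94 and 0.24 by the same ratios. Other lambda records lay on both sides of 0. AF138742, a J-C lambda 3 record, stood at -1.29 ± 0.06, and the probes named Iglv1 between 0.08 and 0.33. Whether heavy and light chains differ was not tested.

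Genes of antibody-secreting cells had ratios on the same side of 0 as most heavy chain probes. All 14 measured plasma cell probes were below 0, with a median of -0.50, and 1 of them passed the rule. That was Fkbp11, a foldase of the secretory pathway, at -1.07 ± 0.03. The J chain gene Igj, which links IgA and IgM units, had 54765 and 43533 in FAF, against 68321 and 67414 in Conv, at its brighter probe, a ratio of -0.47 ± 0.16, and its other probe stood at -0.42 ± 0.14. Summed over the measured probes, plasma cell intensity was 102373 and 90022 in FAF, against 132798 and 134812 in Conv. No defining plasma cell marker that was measured was near background in either diet except Irf4, with 111 and 124 in FAF, against 135 and 155 in Conv.

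B cell and follicle genes gave 10 of 12 measured probes below 0, none past the rule and a median of -0.17. Cd79b, a signalling chain of the B cell receptor, had 915 and 1010 in FAF, against 1742 and 1673 in Conv, and a ratio of -0.83 ± 0.10, and Ltb, a lymphotoxin subunit, stood at -0.25 ± 0.05. Pax5, Cr2, Fcer2a and Cxcr5 were not measured in either diet. Summed intensity was 3788 and 3796 in FAF, against 4899 and 4908 in Conv. Among genes of class switching and the germinal centre, 10 of 16 were above 0 and none passed the rule, with a median of 0.04. The brightest genes of that list were Bcl6, at 0.31 ± 0.14, and Ung, a uracil glycosylase, at -0.45 ± 0.02. Of 5 measured probes for V(D)J recombination and the surrogate light chain, none passed the rule, and Rag1 and Rag2 were not measured.

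Among genes of IgA transport and homing, 8 of 11 measured probes were below 0 and the median was -0.18. Pigr, the epithelial receptor that carries IgA into the lumen, had 22171 and 21717 in FAF, against 42219 and 38714 in Conv, a ratio of -0.88 ± 0.05. Ccl28, a chemokine for IgA plasma cells, was the 1 probe past the rule, with 124 and 131 in FAF, against 256 and 284 in Conv, and a ratio of -1.08 ± 0.04. Ccl25, a chemokine of the small intestine, stood at 0.22 ± 0.24 and 0.33 ± 0.04. Fc receptors, which bind the constant regions, had a median of 0.26 over 12 measured probes, with Fcgrt at 0.34 ± 0.06 and Fcer1g at 0.24 ± 0.00, and none passed. B cell receptor signalling had a median of -0.08 over 14, with Blnk at -0.40 ± 0.03 and Plcg2 at -0.11 ± 0.05, and none passed.

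Other tissue markers moved as well. Intestinal epithelium was present as labelled, with all 12 probes measured, 10 above 0 and a median of 0.39, and Sis at 1.70 ± 0.07 and Alpi at 1.31 ± 0.10 passed the rule. Its summed intensity was 679565 and 696140 in FAF, against 425468 and 494034 in Conv. The other Alpi probe stood at 0.93 ± 0.11, short of the rule. All 14 measured smooth muscle probes were below 0, with a median of -0.52. Their summed intensity was 123103 and 125750 in FAF, against 184570 and 168487 in Conv. At their brightest probes Mylk stood at -0.44 ± 0.10 and Acta2 at -0.49 ± 0.08. The other measured Acta2 probes stood at -0.038, -0.465 and -0.639. Fat tissue had a median of -1.09 over 10 measured probes, with Cfd at -2.72, Adipoq at -2.08, Car3 at -2.07, Lpl at -1.27, Plin1 at -1.13 and Retn at -1.05 lower and Cidec, at 1.06, higher. The other probes of Car3, Lpl and Retn stood at -0.553, -0.723 and -0.996, not past the rule. The 11 measured T cell probes had a median of -0.31, and Cd5 and Cd8b1 were lower by the rule, at -1.05 ± 0.01 and -1.33 ± 0.08. Of 8 stomach probes 3 were measured, and Gkn2 and Tff1, which were not well above background in Conv, were at least 2.5-fold and 2.44-fold higher in FAF. Each bound was taken against the Conv signal of the probe, or against the dimmest detected signal of that array where this was higher. The part of these other tissues and cells in the heavy chain ratios was not tested.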

How the data were processed

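Total RNA of 1 FAF and 1 Conv small intestine sample was measured on 2 dye-swapped arrays. Spot intensity and local background were extracted, per the file headers, with version 11.5.1.1 of Agilent Feature Extraction. The deposited files also hold the software's log10 ratio of Cy5 over Cy3, background-subtracted and dye-normalised, and the deposited value table equals it within 4.99e-08, with a median of 0 on each array. From the mean intensities, limma 3.58.1 in R 4.3.3 corrected background (normexp, offset 50) and applied loess within each array, with control spots at weight 0. Log2 ratios were turned to FAF over Conv and averaged over arrays and repeated spots, and outlier spots were left out. Per-diet intensities were scaled between arrays by Aquantile. Steps were tested on simulated data.

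The number of arrays, the signal over background and the disagreement of the arrays at the brightest probes limit precision. With 1 sample per diet, the spread between mice is unknown and a size rule replaced a test. Members, lists, motifs and pairs were chosen with earlier results of these data known. Named members were all past the rule, the brightest of each class, the 12 brightest and those with an Igh symbol. Of each list except that of V(D)J recombination, genes past the rule or else the brightest 2 were named. Others were named after their values were seen. Alternatives changed background, normalisation, filters, fold limits, arrays and the membership rule.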

Additional observations from a re-analysis of the deposited data

How the results depend on the processing

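The heavy chain median stayed below 0 under every alternative. Fold limits cannot change that median, and ratios not turned do not read FAF over Conv, so neither bears on its direction. The scanner software's log ratio and the deposited value table, which are identical, gave 18 lower members, a median of -0.53 and an SD of 1.18. An offset of 10 gave a median of -0.47 and an SD of 1.05, and the SD was 0.98 without background correction, 0.92 with median centring and 0.91 without the filter on dim probes. A mean of 1.5-fold gave 25 lower members and a mean of 4-fold gave 2. Leaving out array 1 or 2 gave medians of -0.52 and -0.46 and SDs of 0.93 and 0.93, and constant side medians of -0.104 to 0.037. Ratios not turned for the dye swap gave 0 higher and 0 lower, a median of -0.073, an SD of 0.15, a constant side median of 0.067 and a variable side median of -0.085. Igh names only gave 1 higher, 3 lower, a median of -0.30 and an SD of 0.82. Of alternatives added after the data were seen, leaving out the 3 probes of ENSMUST00000178282 gave a median of -0.46, and -0.043 on the constant side, and leaving out probes past the rule gave -0.53 on the variable side. The 3 higher and 10 lower members were called again in each alternative except median centring (3 and 8), the 4-fold limit (2 and 2), array 2 alone (3 and 9), Igh names only and ratios not turned. No called member changed sign, the ratios not turned aside. The causes of these shifts were not tested. Over these alternatives, JX120341 had the widest range of the called members, from 2.53 to 4.04. Probes near background limit the precision of dim members, whose ratios shrink with the added offset. No paired analysis was possible because both arrays hold the same pair of RNA samples.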
